A study of Oryctolagus cuniculus with 2 samples.

Results

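The genes described here encode the proteins of the cytosolic ribosome. They were taken from the gene symbols of the array: every gene whose symbol is Rpl or Rps followed by a digit, together with Rpsa, Rplp0 and Rplp1, while the Rps6k kinases were left out. This gave 57 genes, 37 of the large and 20 of the small subunit, out of 15605 genes with a symbol. Of a standard set of 77 mammalian ribosomal proteins with such symbols, 51 had a gene in this group, and the other 6 of the 57 were paralogs or genes with a similar name. The remaining 26 of the standard set, Rps2 and Rpl13a among them, are not analysed here as genes of the group. Retinal RNA of Dutch rabbits was measured on Rabbit Gene ST arrays, with 1 array for the control and 1 for the retinal vein occlusion (RVO) condition, both at day 7. RVO was made in the right eye by closing the retinal veins with an argon laser, the untreated control retina came from the left eyes, and the tissue hit by the laser was cut out before RNA was extracted. The methods state a single sample per condition for the arrays and use the opposite eye of each animal as its control, but do not state whether these 2 retinas came from the same animal. With 1 array per condition no difference has a replicate error and none was tested, so the values below describe these 2 arrays.

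The ribosome joins amino acids into protein. Its small subunit holds the mRNA and reads the codons, and its large subunit forms the peptide bond and releases the growing chain through a tunnel. Each protein of the ribosome is needed in about the same number of copies, and in mammals their mRNAs share a start with a run of pyrimidines, the TOP motif, through which mTOR signaling sets their translation together. Every cell type of the retina makes ribosomes, so these genes mark none of them.

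Signals are given on the log2 scale, and a difference is the log2 signal of RVO minus that of the control, where 1 is a 2-fold difference. A gene was counted when either array reached a log2 signal of 5, which 55 of the 57 genes and 12724 genes in all did. The ribosomal protein genes were among the brighter genes, with median log2 signals of 9.62 (control) and 9.87 (RVO), against 7.31 and 7.34 for all genes. Of the 55 genes, 24 had a mean log2 signal of at least 10, as did 821 of all genes. The array as a whole had a median of 6.25 in the control and 6.23 in RVO over its 26193 probe sets.

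Nearly all ribosomal protein genes were higher in the RVO array, most of them slightly. Of the 55 genes, 51 had a difference above 0, or 92.7%, while 42.8% of all genes did. Only 4 lay below 0, where 56.0% of all genes lay. Their median difference was 0.26, or a signal 19.7% higher, and that of all genes was -0.04. Over all 57 genes, with no filter, the median was again 0.26 and 5 genes lay below 0. The middle of the group was narrow, from 0.18 at the lower quartile to 0.33 at the upper quartile. The quartiles of all genes were -0.20 and 0.15. The SD over the 55 genes was 0.21, against 0.47 over all genes.

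**Figure D1:**
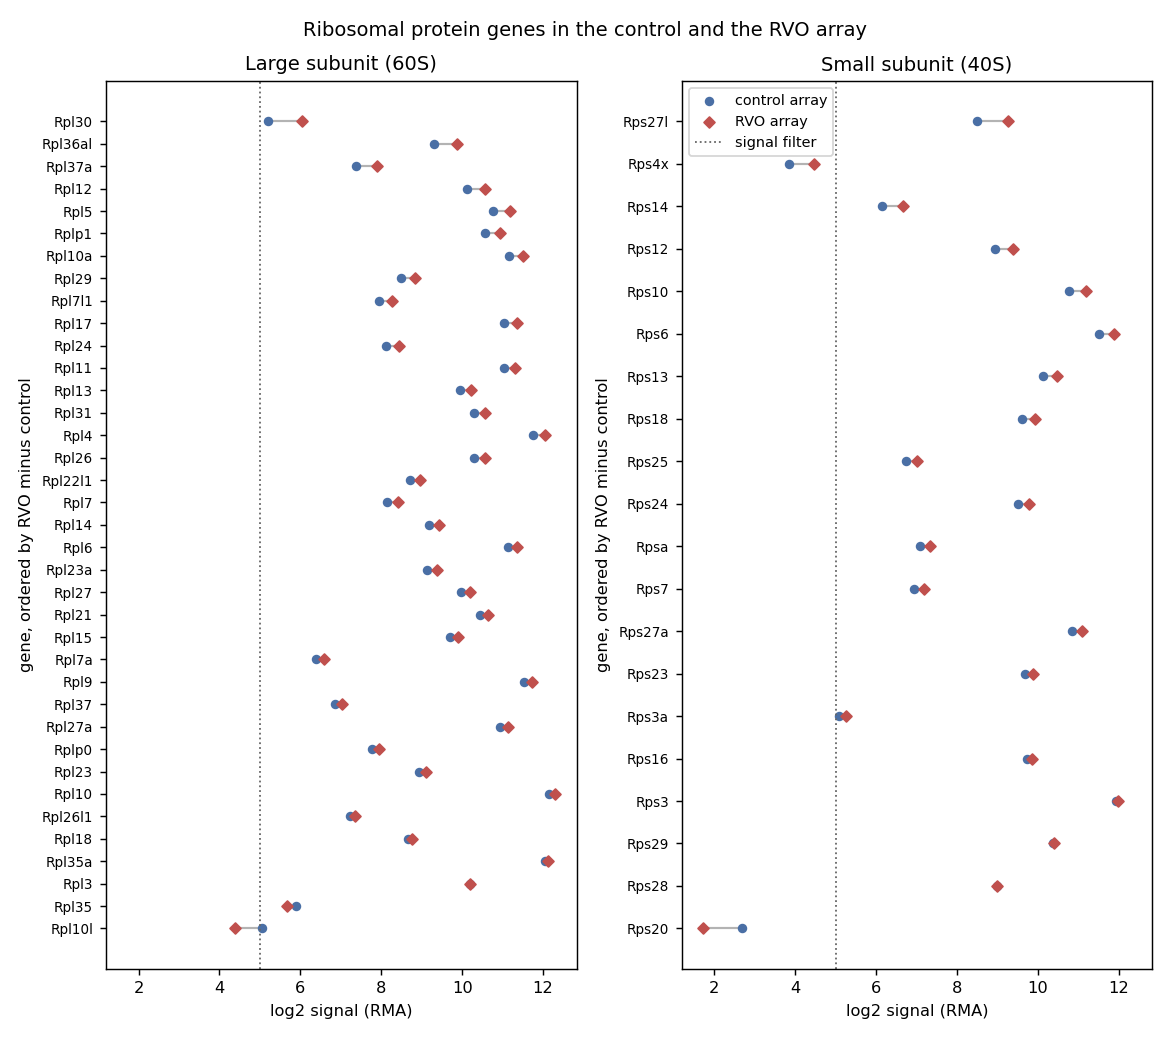
Log2 signal (RMA) of each of the 57 ribosomal protein genes in the control array (circles) and the RVO array (diamonds), with large subunit genes on the left and small subunit genes on the right, ordered by their difference. The dotted line is the signal filter of 5, and in most rows the diamond lies a short and similar distance to the right of the circle.

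None of the 55 genes was beyond 2-fold in either direction, while 3.50% of all genes were higher by over 2-fold and 0.479% lower. Past 1.5-fold there were 2 higher genes and 1 lower gene, where the shares of all genes were 7.25% and 3.03%. The shift therefore appeared in small differences. Of the 55 genes, 26 passed 1.2-fold upwards and 1 passed it downwards, against 16.8% and 18.4% of all genes; this limit was chosen after the values had been seen. Of the 55 genes, 45 lay above 0.15, the upper quartile of all genes.

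**Figure D2:**
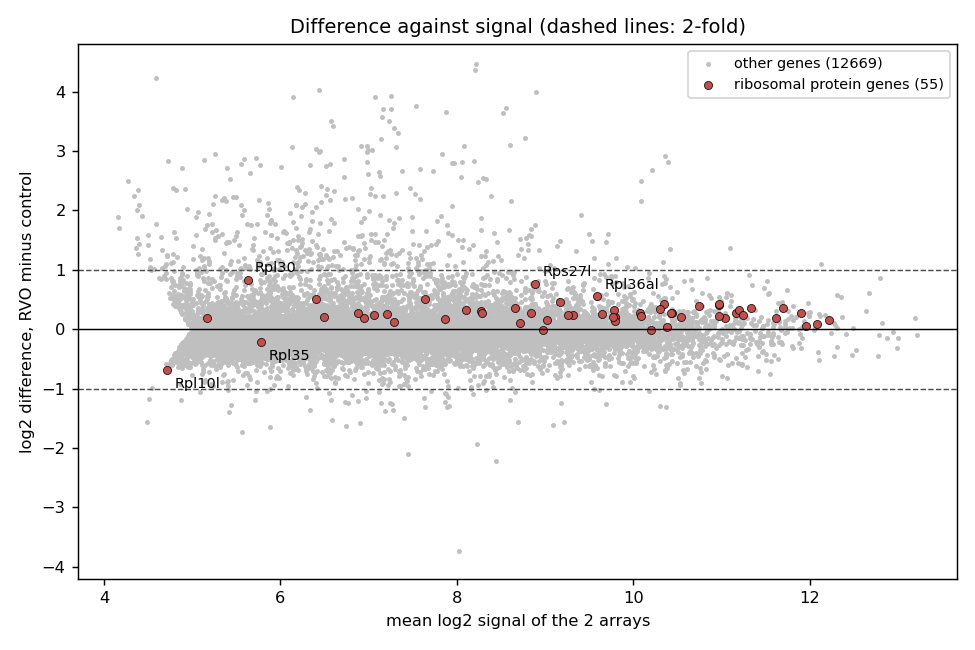
Log2 difference (RVO minus control) against the mean log2 signal of the 2 arrays, for 55 ribosomal protein genes (red) and 12669 other genes (grey), with dashed lines at 2-fold. Most red points lie in a band a little above 0, they scatter more widely at the lowest signals, and no red point crosses a dashed line.

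The difference did not follow the signal. Spearman's correlation between mean signal and difference was 0.03 and Pearson's r was 0.13 over the 55 genes, which share the same 2 arrays. The median was 0.22 for the 12 genes with a mean log2 signal from 5 to under 8, 0.26 for the 18 genes from 8 to under 10 and 0.27 for the 24 genes at 10 or above, with Rpl10l under 5 on average. In the same ranges the medians of all genes were -0.05, -0.03 and -0.05. The spread became smaller with signal, since the SD was 0.25 in the lowest of these ranges and 0.12 in the highest.

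Both subunits showed the shift. Of 37 large subunit genes 34 were above 0, with a median of 0.25, and of 18 small subunit genes 17 were above 0, with a median of 0.26. The curves of the 2 subunits lay over each other through most of their range.

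**Figure D3:**
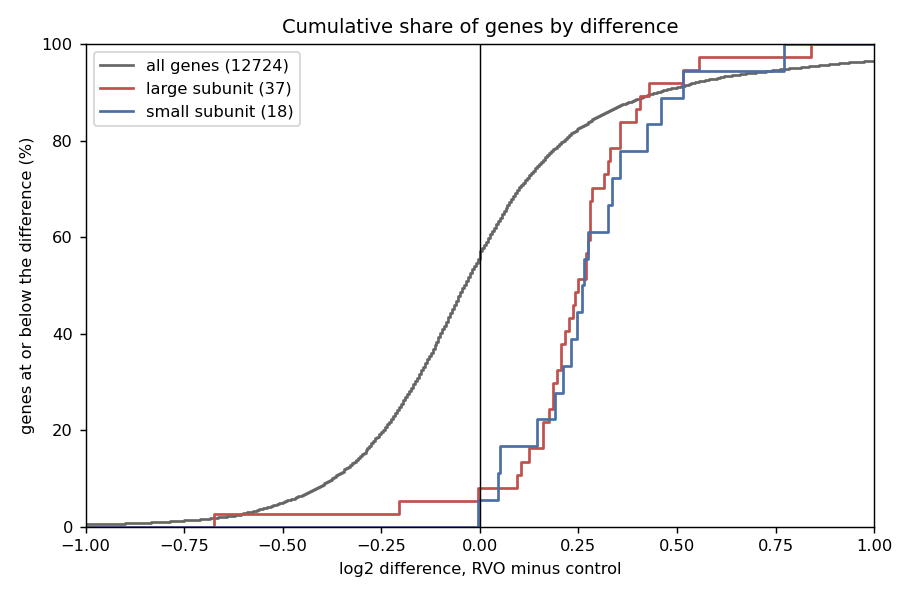
Share of genes (%) at or below each log2 difference (RVO minus control), for 37 large subunit genes, 18 small subunit genes and all 12724 genes, shown from -1 to 1. Both subunit curves climb steeply to the right of 0, where the curve of all genes has already passed 50%.

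The 5 brightest ribosomal protein genes were all higher in RVO, by 0.05 to 0.35, although Rps3 turned to -0.02 when quantile normalization was repeated. Rpl10, a late-joining large subunit protein needed for the subunits to join, had a log2 signal of 12.15 (control) and 12.30 (RVO). Rps3, at the mRNA entry of the small subunit, had 11.94 and 11.98. Rpl4, which lines the exit tunnel, had 11.76 and 12.04. The RVO signal was the higher one in each, by 0.16, 0.05 and 0.28. Rps6, the small subunit protein that S6 kinases phosphorylate below mTOR, had 11.52 and 11.87, a difference of 0.35. Rpl35a had 12.04 and 12.13 in its brighter probe set and is taken up again with the probe sets.

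The stalk of the large subunit draws elongation factors to the ribosome. Its acidic protein Rplp1 had log2 signals of 10.55 and 10.95, a difference of 0.39. Rpl12, at the stalk base, had 10.13 and 10.56, a difference of 0.43. Rplp0, the core of the stalk, differed less, with 7.78 and 7.95. All 3 measured stalk genes were thus higher in RVO, by 0.17 to 0.43. Rpl5 and Rpl11, which together carry the 5S rRNA into the large subunit and can bind the p53 regulator MDM2, differed by 0.40 and 0.28. Rpl5 had 10.77 in the control and 11.17 in RVO, and Rpl11 had 11.03 and 11.31.

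At the exit tunnel and its rim, 5 of 6 measured genes were above 0. Rpl17 differed by 0.32, Rpl31 by 0.28, Rpl4 by 0.28, Rpl26 by 0.27 and Rpl23a by 0.23, a range of less than 0.1. Rpl35, which sits on the same rim, was the exception with 5.89 in the control and 5.68 in RVO. Its difference was -0.21, and both of its signals were low. Among small subunit proteins of the mRNA channel and the decoding centre, Rps14 differed by 0.51, Rps23 by 0.21 and Rps3 by 0.05, and Rps28 by -0.0055. These 4 genes had a median of 0.13 and an SD of 0.23.

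The highest differences belonged to genes of different kinds. Rpl30, a large subunit protein, had a log2 signal of 5.21 (control) and 6.05 (RVO), a 1.78-fold difference that rests on a low signal. Rps27l, a paralog of Rps27 that p53 induces in human cells, had 8.50 and 9.27, a 1.70-fold difference at a moderate signal. These were the only ribosomal protein genes counted as higher by over 1.5-fold, and they ranked 592nd and 662nd of all 12724 genes. Rpl36al, an intronless paralog of Rpl36a, followed with 9.31 and 9.87, a difference of 0.55. Rpl37a, a zinc finger protein of the large subunit, had 7.38 and 7.89. Rps12 and Rps10, both of the small subunit head, differed by 0.46 and 0.42. Rps12 had 8.94 and 9.40, and Rps10 had 10.76 and 11.18.

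At the low end, 2 of the 4 genes below 0 did so by under 0.01. Rpl3, which reaches the site where the peptide bond forms, had 10.20 in the control and 10.19 in RVO, a difference of -0.0063. Rps28, at the mRNA exit, had 8.98 in each array. Both genes lay above 0, by 0.0086 and 0.0094, after each array was centred on its own median. Rps29, a zinc-binding small subunit protein, had 10.36 and 10.40, and Rpl18 had 8.67 and 8.77. The remaining gene below 0 besides Rpl35 was Rpl10l, an intronless copy of Rpl10 that acts in the testis of the mouse. It had 5.05 and 4.37, close to the filter, and its difference of -0.68 was the only one lower by over 1.5-fold.

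The 6 paralogs and genes with a similar name had an SD of 0.50, against 0.16 for the 49 standard ribosomal proteins, but 0.25 without Rpl10l, which passed the filter only through the control array. Standard proteins alone had 46 of 49 genes above 0 and a median of 0.25. Rpl7l1, which works in the assembly of the large subunit in human cells, had 7.94 and 8.27, and its relative Rpl7 had 8.15 and 8.42. Their differences were 0.33 and 0.27. Rpl26l1 had 7.22 and 7.35, a difference of 0.12, where Rpl26 had 10.30 and 10.57. Rpl22l1, a paralog of Rpl22, had 8.70 and 8.97, a difference of 0.27. Of the 3 pairs with both genes measured, only Rpl10l and Rpl10 had differences on opposite sides of 0.

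Rps4x and Rps20 stayed under the filter in both arrays and are in none of the counts that use the filter. Rps4x had log2 signals of 3.86 and 4.46, and Rps20 had 2.69 and 1.72. These were the lowest signals among the standard ribosomal proteins. For Rps20 a pair of other probe sets carried its symbol together with a second one, and these were bright, at 11.98 and 12.27 in the control and at 12.26 and 12.55 in RVO. Their differences of 0.28 and 0.29 lay close to the median of the group, on the other side of 0 from the -0.97 of the dim probe set.

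Probe sets of the same gene give a view of how far the difference depends on the probes. Of the 61 probe sets of these genes that passed the filter, 56 were above 0. Rpl17 had 3 probe sets, at control signals of 7.95, 9.69 and 11.04, with differences of 0.13, 0.24 and 0.32. Rps24 had differences of 0.29 and 0.26 and Rpl9 of 0.27 and 0.19. Rpl22l1 had 0.09 in its dimmer and 0.27 in its brighter probe set. Rpl35a disagreed, with 0.09 in the bright probe set and -0.39 in a dim one whose signals were 5.27 and 4.88. The pooled SD between probe sets of a gene was 0.16 over these 5 genes, and 0.19 over 118 such genes of the array. Errors that all probe sets of an array share, and the spread between animals, are no part of this SD.

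Another 7 probe sets carried a ribosomal protein symbol together with another symbol and were not used for the group. All 7 were above 0, from 0.01 to 0.48, with a median of 0.28. Rpl36a, shared with LOC100350675, had 8.72 and 9.20, a difference of 0.48 beside the 0.55 of Rpl36al. Rpl8, shared with Znf34, and Rpl38, shared with Ttyh2, differed by 0.01 and 0.05. Ribosomal protein genes have many processed copies in mammalian genomes, and whether such copies share probes with the genes named here was not tested. Of the 57 gene identifiers, 52 carried the same symbol in the RefSeq table of assembly mOryCun1.1, and those of Rpl9, Rpl13, Rpl17, Rpl18 and Rpl27 were not in it. Rps28 is listed there as a lncRNA.

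Of 4 listed standard ribosomal proteins with other names 2 were measured, and 1 of them lay above 0. Rack1, a signaling scaffold on the small subunit, had 9.34 and 9.49, a difference of 0.14. Fau, whose product is cut into a ubiquitin-like protein and a small subunit protein, had 7.47 and 7.44.

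Other mRNAs known to carry the TOP motif were also higher in the RVO array. Of 14 listed genes 11 were measured, and all 11 lay above 0, from 0.04 to 0.39, with a median of 0.29, none of them by over 1.5-fold. The highest was Eif3e, a subunit of the initiation factor eIF3, with 10.12 in the control and 10.51 in RVO. Eef1g, a subunit of the exchange factor of elongation, had 10.02 and 10.38, a difference of 0.37. Nap1l1, a histone chaperone, differed by 0.32 and the poly(A)-binding protein Pabpc1 by 0.31. Eef1a1, which brings aminoacyl-tRNA to the ribosome, had 13.10 and 13.29. The lowest were Eif4b, at 0.04, Hnrnpa1, an RNA-binding protein of the nucleus, at 0.06, and Eef1a1, at 0.19.

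The rest of the translation machinery was closer to all genes, of which 42.8% were above 0, with a median of -0.04. Of 32 measured initiation factors 21 were above 0, with a median of 0.07, or 0.14 with a signal filter at 8. Without the 5 of them that are in the TOP list 16 of 27 were above 0, with a median of 0.05. The eIF3 complex, which was looked at after the values had been seen, had 9 of 10 measured subunits above 0, with a median of 0.22, and the other initiation factors had 12 of 22, with a median of 0.04. These sets are not separate from the TOP list, which holds Eif3e, Eif3f and Eif3h of eIF3, and Eif4b and Pabpc1 of the others. Eif1, which guards the choice of the start codon, was the lowest at -0.28, followed by Eif2b4 and Eif2b3, subunits of the exchange factor of eIF2, at -0.21 each. The highest besides Eif3e were the scaffold Eif4g1 at 0.33 and Pabpc1. Of 9 measured genes listed as elongation and termination factors 6 were above 0, with a median of 0.11. Outside the TOP list 3 of 6 were, with a median of 0.04. Eif5a2, a second form of the elongation factor eIF5A, was the lowest at -0.42, then Eef1e1 at -0.18 and the recycling factor Abce1 at -0.02.

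**Figure D4:**
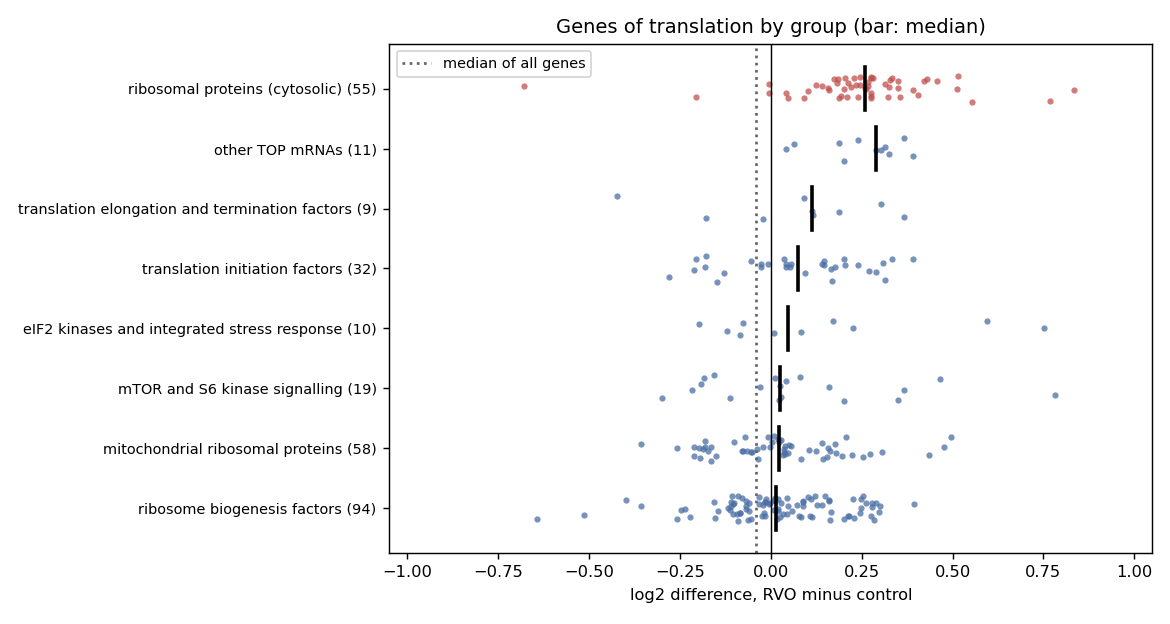
Log2 difference (RVO minus control) of every measured gene in 8 groups of the translation machinery, 1 point per gene, with the number of genes in brackets, a bar at the median and a dotted line at the median of all genes. The 55 ribosomal proteins and the 11 other TOP mRNAs have medians of 0.26 and 0.29, and the other groups lie between 0.01 and 0.11; some genes are in more than 1 group.

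Mitochondrial ribosomal proteins, which are encoded by other genes and serve the ribosome inside mitochondria, showed a smaller shift. Of 58 measured genes 33 were above 0 and 25 below, with a median of 0.02. Of all genes, 42.8% were above 0 and the median was -0.04. The highest were Mrps18b at 0.49, Mrps16 at 0.48 and Mrpl14 at 0.43. The lowest included Mrps17 at -0.36 and Mrps26 at -0.26. None of the 58 was beyond 1.5-fold.

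Ribosome biogenesis factors make rRNA and put the subunits together in the nucleolus. They had 51 of 94 measured genes above 0, against 42.8% of all genes, and a median of 0.01. This median changed its sign, to -0.0088, when quantile normalization was repeated. The snoRNP protein Nhp2 was the highest at 0.39. Lyar, a nucleolar protein, was the lowest at -0.64, and Mdn1, an ATPase that remodels the large subunit precursor, and Mrto4, an assembly factor that precedes Rplp0 on it, differed by -0.51 and -0.40.

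Of 19 measured genes of mTOR and S6 kinase signaling 12 were above 0, against 42.8% of all genes, with a median of 0.02. Myc, a transcription factor that raises ribosome production, differed by 0.78, from 6.15 to 6.93, and was the only one beyond 1.5-fold. Ddit4, an inhibitor of mTOR under hypoxia, differed by 0.47 and Deptor, another inhibitor, by 0.37. Rps6ka2 differed by -0.30, Mtor itself by -0.22 and its partner Rictor by -0.19. Among 10 genes of the eIF2 kinases and the integrated stress response the median was 0.05. Eif2ak2, the kinase PKR induced by interferon, differed by 0.75 and the stress protein Sesn2 by 0.59, while the asparagine synthetase Asns differed by -0.20.

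Markers of cell types differed between the same arrays. Rod genes were bright, with log2 signals of 10.84 and above in the 5 that were measured. All 5 were lower in RVO, by -0.56 to -0.15, and the log2 of their summed signal went from 14.77 to 14.38. All 8 measured ganglion cell genes of 9 were lower as well, with a summed signal from 12.26 to 11.25. Müller glia genes were split, with 3 of 6 above 0 and a summed signal from 13.42 to 13.69. All 10 measured genes of 11 of microglia and macrophages were higher, with a median of 2.05 and a summed signal from 9.73 to 11.67. The 6 measured skeletal muscle genes of 10 had a median of 3.50 and a summed signal from 8.49 to 11.71. The 7 genes of dividing cells had a median of 2.24 and a summed signal from 7.02 to 8.84. All 7 had control log2 signals below the filter of 5, from 3.22 to 4.90. They passed the filter only through the RVO array, so they could only be counted as higher. The same holds for Ptprc among the microglia and macrophage genes and for Tnnc2 among the muscle genes. Of 8 fibroblast genes 7 were higher, with a summed signal from 9.99 to 12.65. Rbpms, Csf1r, Myh1, Myh2, Tnnt3 and Mylpf gave no value past the filter. The part of these cells in the higher signals of the ribosomal protein genes was not tested, and in bulk tissue more cells of a type and more RNA per cell cannot be told apart.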

How the data were processed

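A single array was run for each condition, control and RVO. The log2 signals deposited by the authors come from RMA, a method that subtracts background, matches the distributions of the arrays and gives 1 value per probe set, and they were used without change. RMA brings the arrays to a common scale, so differences are relative to the other probe sets. Of 26193 probe sets, the 15816 with exactly 1 symbol in the platform annotation were used, each gene by its probe set with the highest mean signal, and a gene was left out when both signals were below 5. The number of arrays limits the precision, and no test was possible. The gene group and the lists were chosen with earlier results of these data known. Named were the 8 highest and 8 lowest genes, the 5 brightest, those beyond 1.5-fold, paralogs with their relatives and the structural groups, and in other lists up to 3 at each end. Other filters, scalings, choices of probe set and member definitions were tried. The steps were tested on simulated data and run in Python 3.11.15 with pandas 2.3.3 and statsmodels 0.14.6.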

Additional observations from a re-analysis of the deposited data

How the results depend on the processing

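The median difference of the ribosomal protein genes stayed above 0 under all 12 alternatives, between 0.24 and 0.28, as did that of the large subunit, between 0.23 and 0.27, and that of the small subunit, between 0.26 and 0.30. The median of all genes ranged from -0.04 to -0.03 except after taking out the trend with signal, where it was 0.0090 and 51.5% of all genes lay above 0. No gene of the group was beyond 2-fold under any alternative. The number of genes below 0 was 4. It was 5 with no filter, with quantile normalization repeated and with the mean or the dimmest of a gene's probe sets. It was 3 without paralogs and similarly named genes, or with only identifiers that RefSeq lists as protein-coding under the same symbol. It was 2 with a filter at 6 or 8, after centring each array on its own median or after taking out the trend with signal. With a filter at 10 it was 1. The number higher by over 1.5-fold was 2, and 3 with no filter, 1 with a filter at 8 or without paralogs and similarly named genes, and 0 with a filter at 10. The number lower by over 1.5-fold was 1, and 2 with no filter, and 0 with a filter at 6, 8 or 10 or without paralogs. The median of ribosome biogenesis factors turned from 0.01 to -0.0097 with a filter at 8 and to -0.0088 with quantile normalization repeated; the cause was not tested. Rpl35a turned to -0.15 as the mean of its probe sets and to -0.39 in the dimmer of them. The filter at 10, the checks of the TOP list and the use of probe sets with several symbols were chosen after seeing the data. So were the limit to protein-coding RefSeq identifiers of the same symbol and the SD of paralogs without Rpl10l. No paired analysis was possible because each condition has 1 array. With 1 array per condition, neither the spread between animals nor that between arrays is known.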
